A study of Zea mays with 32 samples.

Results

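The subject is a block of neighbouring maize genes at the place of a highland inversion on chromosome 4, described across 8 landraces. The block was cut by gene ID: every ID from Zm00001eb190470 to Zm00001eb194800 with a mean normalized count of at least 10 over all libraries. The deposited table holds 383 IDs in this span, and 283 of these reached the mean and are its members, out of 26156 genes that reached it in the whole table of 39756. The rule used each gene's place and mean and no difference between landraces. It was chosen, however, with earlier results of these data known. The block is compared with 2 flanks that span as many steps of the ID numbering. The lower flank, with IDs before the block, held 271 genes above the minimum, and the upper flank, with IDs after it, held 253.

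An inversion is a stretch of a chromosome that runs in the opposite direction in some individuals. Exchange between the inverted and the standard order is largely suppressed, so the alleles inside tend to be inherited together. A large inversion on the long arm of chromosome 4 is known from Mexican highland maize and from the wild relative teosinte mexicana, and it has been linked to flowering time. Landraces by the names of Mushito and Palomero are known from the highlands of central Mexico. The labels say neither which landraces carry the inversion nor where each was collected, and the files hold no coordinates, so the block is located by the order of its IDs alone.

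RNA was measured in leaf primordia, the young leaf stages on the shoot tip, of the landraces Mushito, Palomero, Tabloncillo, Reventador, Zapalote, Gordo, Nal-tel and Jala. A landrace is a farmers' traditional variety whose plants are not genetically uniform. All plants were grown at 35 °C under a treatment labelled heat, and the ninth and the fifth leaf were taken at plastochron stage 4. Each of the 16 combinations of landrace and leaf had 2 libraries, 32 in all. The labels do not say whether the 2 libraries came from separate plants or from pools, so p-values measure the spread between these libraries, which may be technical. Libraries held between 54.8 and 121.0 M recovered reads (median 66.0 M). The reference table of gene names matched 0 of the IDs, so members are given by ID without a role, and the labelled tissue could not be checked against marker genes. In whole leaf tissue, fewer cells of a type and less RNA per cell cannot be told apart.

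Members ranged in mean from 10.1 to 39097 normalized counts, with a median of 884.7. Of the 283 members, 229 had a mean of at least 100 and 130 a mean of at least 1000, and 238 had more than 3 reads in each of the 32 libraries. The first member by ID was Zm00001eb190490 and the last was Zm00001eb194800. At the edge of the minimum, Zm00001eb192540 had a mean of 10.1 and was kept, and Zm00001eb191460 had a mean of 8.96 and was not. The member with the highest mean, Zm00001eb191090, averaged 34365 ± 6577 in the ninth leaf and 43829 ± 6631 in the fifth leaf (SD, n = 16 libraries each). Taken as a whole, the 383 IDs of the span, those below the minimum included, held like shares of the reads in both sets of landraces. The share was 0.901% to 0.979% in the 8 libraries of Mushito and Palomero, with a median of 0.933%, and 0.912% to 0.975% in the 24 libraries of the other 6 landraces, with a median of 0.934%.

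The first comparison asked how the block differed in Mushito and Palomero, the pair, from the other 6 landraces. With the test used throughout, limma on log2(normalized count + 1) fitted over all 26156 genes with Benjamini-Hochberg adjustment, 110 of the 283 members had an adjusted p under 0.05. That is 38.9% of the members, against 15.3% of all tested genes, 17.3% of the lower flank and 14.2% of the upper flank. Of the 110 members, 44 were higher (8.91% of all genes were) and 66 lower (6.35% of all genes) in the pair, so that 60.0% of the members called were lower, against 57.4% of the genes called in the lower flank, 58.3% in the upper flank and 41.6% over the whole table. The share lower was thus near that of the flanks. The median size of the log2 fold change (called the log2 ratio from here), regardless of sign, was 0.28 in the block, 0.20 in the lower flank, 0.15 in the upper flank and 0.15 over all genes. Of the 283 members, 44 were called with a difference of at least 2-fold (15.5%), against 6.27% of the lower flank, 7.51% of the upper flank and 6.70% of all genes. Of the 110 members called, 12 had a mean under 10 in the pair or in the other 6 and so reached the minimum through one of the 2 sets alone, or 10.9% of the calls, against 10.4% of the calls over all genes. These p-values rest on the spread between libraries within a landrace, and only 2 landraces stand against 6. With the 8 landrace means as the units, the same test called 10 members, 3 higher and 7 lower in the pair, or 3.53%, against 0.271% of all genes. Among these 10 are Zm00001eb192540 (higher) and Zm00001eb191110 (lower), which reached the minimum through one of the 2 sets of landraces alone.

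**Figure D1:**
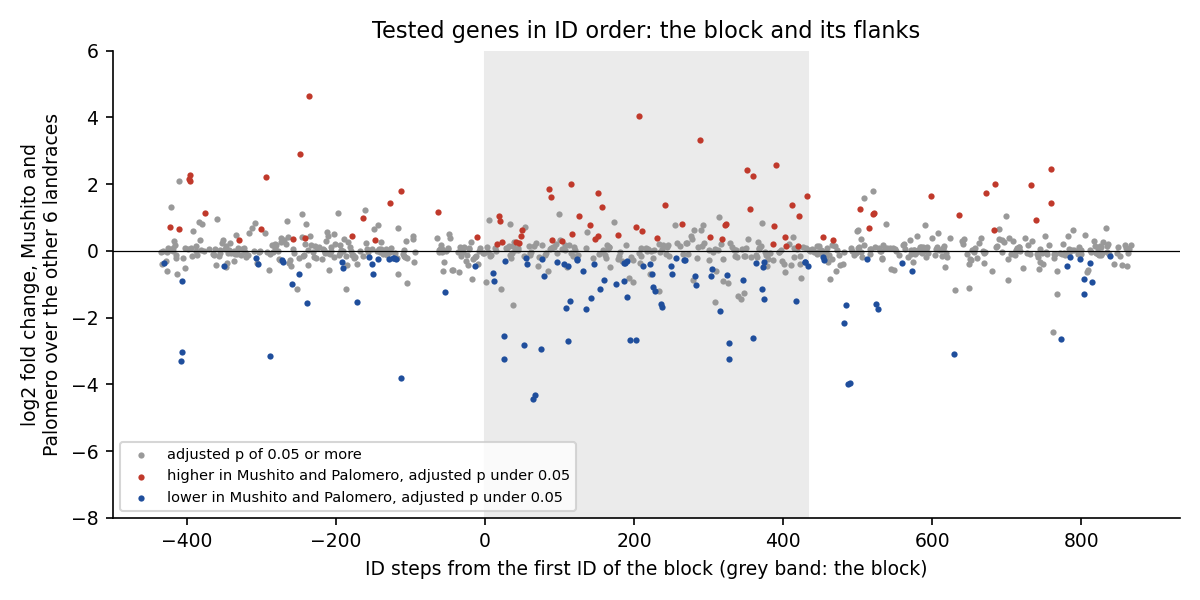
Each point is 1 tested gene of the lower flank, the block (grey band) or the upper flank, by its distance in ID steps from the first ID of the block and its log2 fold change, Mushito and Palomero over the other 6 landraces, on the log2(normalized count + 1) scale. Coloured points have an adjusted p under 0.05 (limma): 110 of 283 in the block, 47 of 271 in the lower flank and 36 of 253 in the upper flank.

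The calls were spread over the whole block. Cut into 7 windows of 62 ID steps, each with 34 to 44 members, the block had 30.2% to 44.1% of its members called in each window. The 7 windows of the lower flank had 5.41% to 27.3% of their genes called, and the 7 of the upper flank 7.32% to 20.5%. Every window of the block thus stood above every window of both flanks. At the borders, the share was 37.2% in the first window of the block, against 7.32% in the last window of the lower flank. It was 41.5% in the last window of the block, against 20.5% in the first window of the upper flank. Without the first and the last window of the block, 77 of 199 members were called, against 3993 of 26156 genes over the whole table.

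**Figure D2:**
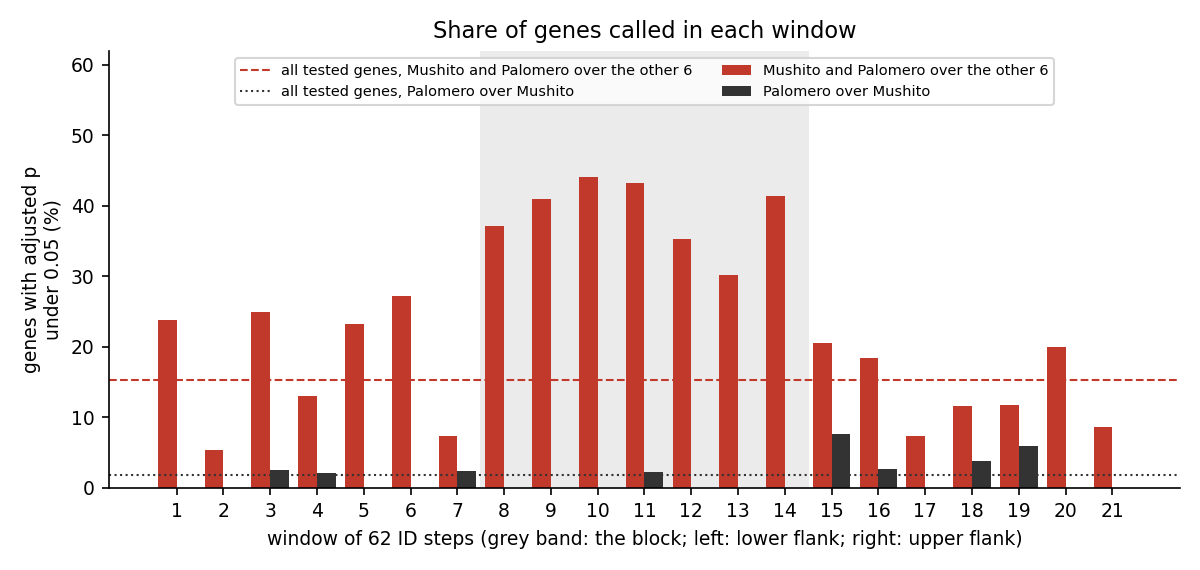
Bars give the share of tested genes with an adjusted p under 0.05 (limma) in each of 21 windows of 62 ID steps, for Mushito and Palomero over the other 6 landraces and for Palomero over Mushito. The dashed and dotted lines mark the shares over all tested genes, 15.3% and 1.75%, and the bars of the first comparison reach 30.2% to 44.1% in the 7 windows of the block.

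In 6 members the 8 libraries of the pair lay entirely on one side of the other 24, which is 2.12% of the members, against 0.333% of all tested genes, 2 genes of the lower flank and 0 of the upper flank. Zm00001eb194680 had 1392 and 1304 normalized counts in the ninth leaf and 1268 and 1453 in the fifth leaf of Mushito, and 1194 and 1729 in the ninth and 1644 and 1451 in the fifth leaf of Palomero, against a lowest value of 402.0, a median of 694.1 and a highest value of 908.0 in the other 6 landraces. All 8 libraries of the pair were thus above the highest of the other 24. Its means were 1429 ± 183 in the pair (SD, n = 8) and 703.2 ± 132 in the other 6 (SD, n = 24), a log2 ratio of 1.04 (SE 0.10, adjusted p = 3.39e-07 by limma).

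Zm00001eb191560 showed the smallest adjusted p of the block in this comparison and lay the other way. It had 619.9 and 464.6 normalized counts in the ninth leaf and 491.5 and 671.8 in the fifth leaf of Mushito, and 558.5 and 589.0 in the ninth and 707.7 and 630.0 in the fifth leaf of Palomero. The other 24 libraries ran from 1417 to 2565, with a median of 1910. The highest library of the pair was at less than the lowest of the others, and Mushito and Palomero overlapped with each other. The log2 ratio was -1.70 (SE 0.08, adjusted p = 2.78e-11 by limma). It was -1.78 ± 0.11 for Mushito alone and -1.63 ± 0.11 for Palomero alone, both against the same 6 landraces. Here and below, ± after a log2 ratio gives the SE. Over all 8 landraces this member also had the smallest adjusted p in the F-test among the members with a mean of at least 100, 3.51e-09.

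Zm00001eb192340 ran from 491.5 to 880.1 normalized counts in the pair, with a median of 776.5, and from 980.0 to 1824 in the other 6, with a median of 1408. The groups did not overlap, and the 2 lowest libraries of the pair were both from the fifth leaf of Mushito. Its log2 ratio was -0.90 (SE 0.08, adjusted p = 1.27e-07 by limma). The remaining members without overlap were named only because there were so few. Zm00001eb191260 ran from 632.1 to 954.7 in the pair and from 1016 to 1610 in the other 6, and Zm00001eb194200 from 2814 to 3494 in the pair and from 3512 to 7179 in the other 6. Both were lower in the pair, the second by a narrow gap. Zm00001eb192540, the member just inside the minimum mean, ran from 17.0 to 52.9 in the pair and from 0 to 6.66 in the other 6. It reached the minimum only through the pair and so had to differ, and without it 5 members had no overlap.

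Other members were at or near 0 in the pair. With 3 reads or fewer in a library taken as the floor, 0 members were at the floor in all 24 libraries of the other 6 (0.0191% of all genes were). In all 8 libraries of the pair, 2 members were at the floor (0.707%, against 0.203% of all genes). Both reached the minimum mean only through the other 24 libraries and so had to differ, and their values are a description without a test. Zm00001eb191110 was listed at 0 in 7 of the 8 libraries of the pair and at 1.10 in the first library of the fifth leaf of Palomero. In the other 6 landraces it averaged 32.6 ± 24.8 (SD, n = 24) and was above the floor in 23 of the 24 libraries, which makes it at least 9.80-fold lower in the pair against a floor of 3 reads per library. Zm00001eb191140 had at most 2 reads in a library of the pair. It averaged 86.7 ± 109 in the other 6 (SD, n = 24), above the floor in 18 of 24 libraries, and was at least 26.1-fold lower in the pair on the same floor. It did not separate the pair alone, since the 4 libraries of Reventador were also at the floor, and the highest values, 260.4 to 420.0, were those of Jala. These floors cover counting error only. Reads were counted only where they were placed on annotated genes. Whether reads of these 2 members went unplaced in the pair was not tested.

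The 2 leaves were then taken apart, each with 4 libraries of the pair against 12 of the others. In the ninth leaf 53 members were called, 19 higher (3.23% of all genes) and 34 lower (1.97% of all genes), or 18.7% of the members, against 5.2% of all genes. In the fifth leaf 82 members were called, 29 higher (6.16% of all genes) and 53 lower (4.65% of all genes), or 29.0%, against 10.8% of all genes. In 47 members the call was made in both leaves (16.6%, against 3.20% of all genes), and 88 were called in either leaf (31.1%, against 12.8% of all genes). Single libraries weighed on these counts: without the first ninth-leaf library of Mushito 35 members were called in the ninth leaf (12.4%, against 3.07% of all genes), and without the second library of the fifth leaf of Palomero 48 were called in the fifth leaf (17.0%, against 5.56%). A test of whether the pair's difference itself changed between the leaves called 0 of 283 members with limma, against 2 genes or 0.00765% over the whole table. At an unadjusted p under 0.05 it counted 23 of 283 members (8.13%), against 2599 of 26156 genes (9.94%). On recovered reads edgeR called 1 member (0.353%, against 0.0229% of all genes) and DESeq2 called 4 (1.41%, against 1.04%).

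In the ninth leaf Zm00001eb194380 ran from 180.7 to 504.8 normalized counts in the pair, all above the other 6 at 26.4 to 74.0 (log2 ratio 2.57, SE 0.39, adjusted p = 0.000247 by limma). It was also apart in the fifth leaf, at 316.3 to 705.2 in the pair and 21.7 to 205.4 in the other 6 (log2 ratio 2.60, SE 0.39, adjusted p = 0.000200 by limma). Over both leaves the groups met, since the second library of the fifth leaf of Zapalote, at 205.4, exceeded the lowest ninth-leaf libraries of Mushito and Palomero.

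Zm00001eb194070 had 624.7 and 671.2 normalized counts in the ninth leaf of Mushito and 615.2 and 724.0 in that of Palomero, against 34.9 to 358.0 in the other 6, with a median of 113.2 (log2 ratio 2.51, SE 0.32, adjusted p = 3.80e-05 by limma). The ninth-leaf libraries of the pair lay close together and above all others. Among the other 6, Tabloncillo had the highest libraries, with 358.0 and 135.0 in the ninth leaf and 416.6 and 179.3 in the fifth, and its highest reached the range of the pair in the fifth leaf, 299.1 to 453.7.

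Among members lower in the ninth leaf, Zm00001eb192420 ran from 8.94 to 31.9 in the pair and from 52.4 to 307.5 in the other 6, with a log2 ratio of -2.94 (SE 0.27, adjusted p = 5.51e-07 by limma). The 4 libraries of the pair were below all 12 others. Over both leaves its other 6 landraces were themselves unequal: Gordo ran from 52.4 to 106.1 and Tabloncillo from 44.8 to 98.9, while Nal-tel ran from 243.1 to 342.7 and Reventador from 227.9 to 382.9. Its adjusted p in the F-test over 8 landraces was 6.85e-08, the second smallest among the members with a mean of at least 100. Zm00001eb191000 ran from 26.0 to 57.9 in the ninth leaf of the pair and from 91.2 to 357.1 in that of the other 6 (log2 ratio -2.61, SE 0.46, adjusted p = 0.00116 by limma).

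In the fifth leaf Zm00001eb193360 had the largest rise among the members with a mean of at least 100. It had 187.2 and 329.7 normalized counts in Mushito and 1014 and 1008 in Palomero, against 8.73 to 97.9 in the other 6, with a median of 32.4 (log2 ratio 3.92, SE 0.50, adjusted p = 4.12e-05 by limma). Both landraces were above all 12 other libraries of this leaf. In the ninth leaf it had 164.0 and 132.9 in Mushito and 442.8 and 422.1 in Palomero, and there 1 library of Gordo, at 256.2, lay above those of Mushito.

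Zm00001eb191590 ran from 1.89 to 33.1 in the fifth leaf of the pair and from 35.0 to 254.3 in that of the other 6 (log2 ratio -3.10, SE 0.47, adjusted p = 0.000244 by limma). The gap between the groups was narrow, since the highest library of Palomero stood at 33.1 and the lowest of Nal-tel at 35.0.

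**Figure D3:**
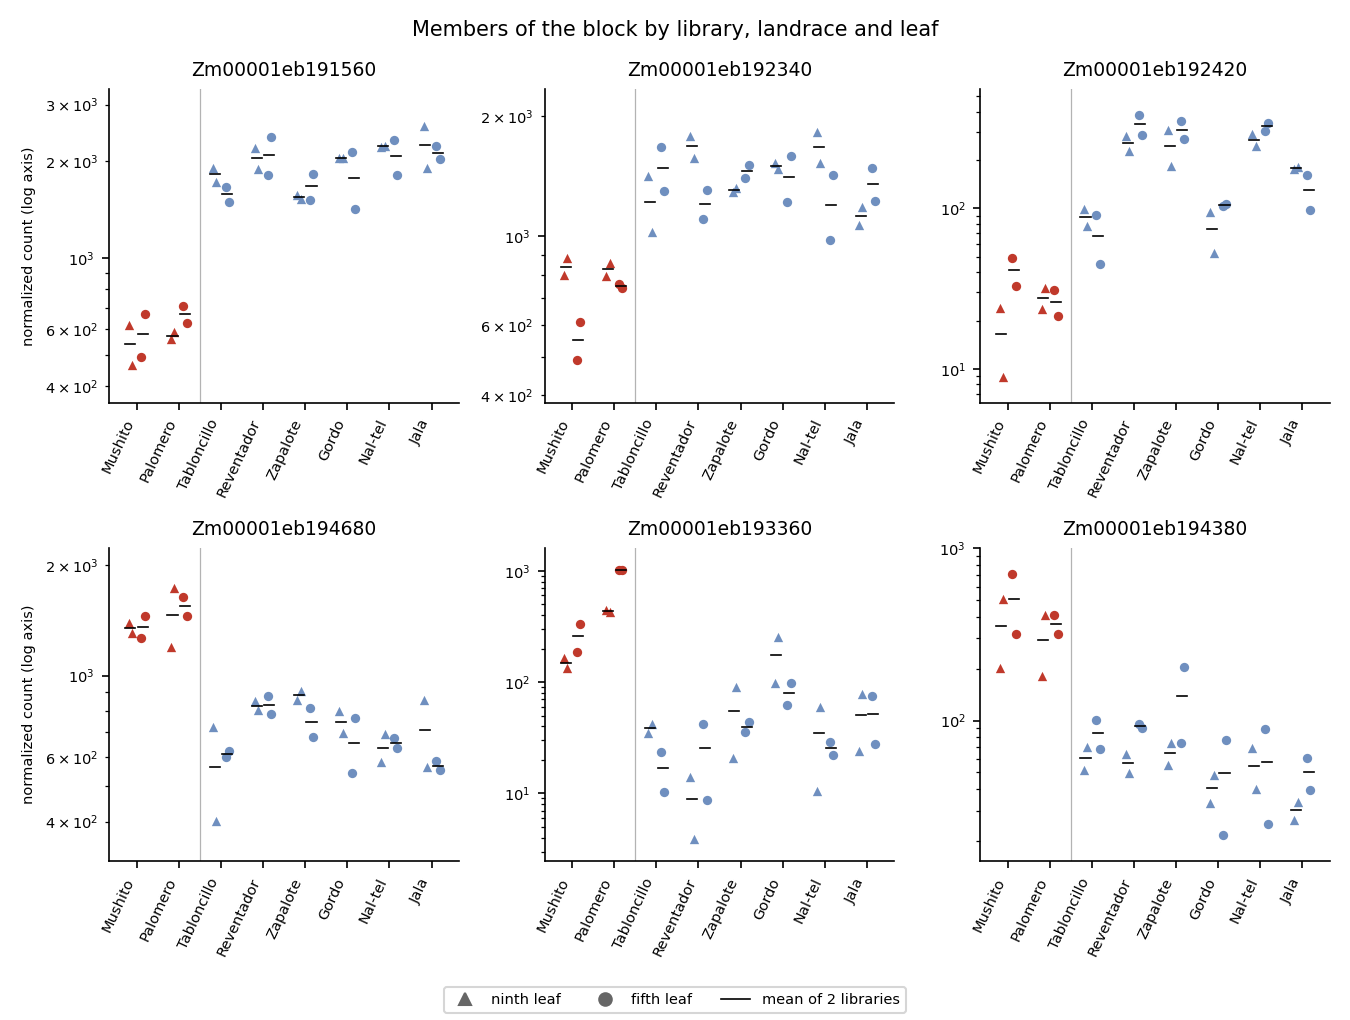
Normalized counts of 6 members on log axes, by landrace, with 2 ninth-leaf libraries (triangles), 2 libraries of the fifth leaf (circles) and their mean (lines) for each landrace, and Mushito and Palomero in red at the left. Zm00001eb191560, Zm00001eb192340 and Zm00001eb192420 lie lower in the pair and Zm00001eb194680, Zm00001eb193360 and Zm00001eb194380 higher, with 464.6 to 707.7 in the pair and 1417 to 2565 in the other 6 for Zm00001eb191560.

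Mushito and Palomero were next set against the other 6 one at a time. These comparisons share their 24 control libraries, so their values are given side by side without an overlap. For Mushito 74 members were called, 30 higher (4.37% of all genes) and 44 lower (2.8% of all genes), or 26.1%, against 7.17% of all genes. For Palomero 81 members were called, 26 higher (6.73% of all genes) and 55 lower (5.04% of all genes), or 28.6%, against 11.8% of all genes. The 4 libraries of Mushito were apart from the 24 others in 16 members (5.65%, against 0.681% of all genes), and those of Palomero in 18 (6.36%, against 1.22%). Without the second ninth-leaf library of Mushito the first count was 44 (15.5%, against 3.40% of all genes), and without the second ninth-leaf library of Palomero the second was 53 (18.7%, against 5.92%).

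Of the members named for Mushito, Zm00001eb194070 had a log2 ratio of 2.35 (SE 0.30, adjusted p = 2.61e-05 by limma) and Palomero stood at 2.14 ± 0.30. Zm00001eb194680 stood at 0.97 ± 0.13 in Mushito and 1.11 ± 0.13 in Palomero. Zm00001eb191590 fell to 12.1 and 15.6 in the ninth leaf and 1.89 and 16.5 in the fifth leaf of Mushito, against a median of 110.5 in the other 6 (log2 ratio -3.51, SE 0.44, adjusted p = 2.56e-05 by limma). In Palomero that member stood at -1.91 ± 0.44, with its 2 ninth-leaf libraries inside the range of the others.

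Of the members named for Palomero, Zm00001eb193360 had a log2 ratio of 4.23 (SE 0.47, adjusted p = 3.36e-06 by limma), while Mushito stood at 2.45 ± 0.47. Zm00001eb191330 had 823.0 and 635.6 normalized counts in the ninth leaf and 493.9 and 587.6 in the fifth leaf of Palomero, against 76.4 to 286.4 in the other 6 (log2 ratio 2.03, SE 0.21, adjusted p = 1.61e-06 by limma). All 4 were above the 24 others, whereas 1 ninth-leaf library of Mushito, at 250.2, fell inside their range. Zm00001eb194210 had 63.8 and 34.4 in the ninth leaf and 82.7 and 57.3 in the fifth leaf of Palomero, against 110.5 to 347.7 in the other 6 (log2 ratio -1.79, SE 0.22, adjusted p = 1.06e-05 by limma). Mushito had 142.3 and 151.9 in its ninth leaf, inside that range, and 41.6 and 75.2 in the fifth leaf, below it. Zm00001eb192420 stood at -2.62 ± 0.25 in Palomero and -2.72 ± 0.25 in Mushito.

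Set directly against each other, Palomero and Mushito differed in 1 member, Zm00001eb192380, or 0.353% of the block, against 1.75% of all tested genes. In the lower flank 3 genes were called (1.11%) and in the upper flank 7 (2.77%), the latter above the share over all genes. At an unadjusted p under 0.05, limma counted 31 of 283 members, against 3238 of 26156 genes (12.4%). On recovered reads edgeR called 1 member (0.353%, against 1.41% of all genes) and DESeq2 called 7 (2.47%, against 3.74%). Without all libraries of Tabloncillo limma called 3, and the count ran from 1 to 7 when single libraries were left out, with the 7 without the second library of the fifth leaf of Mushito. Without that library 2.47% of the members were called, against 2.63% of all genes, so the share in the block was then near the background. The count of 3 without Tabloncillo is given without a share over all genes, so it is not read as a result about the block. The median size of the log2 fold change was 0.16 in the block and 0.18 over all genes. A missed threshold does not show that the landraces are alike: the difference of Zm00001eb193360 was 1.78 on the log2 scale (SE 0.61, adjusted p = 0.183 by limma).

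All 28 pairs of landraces were compared in the same fit, with p-values adjusted over all genes within each pair. These pairs share libraries and are not independent. In the 12 pairs of Mushito or Palomero with one of the other 6, 15.9% to 29.0% of the members were called, against 5.27% to 20.6% of all genes, and the share was higher in the block in 12 of 12. By landrace, Mushito had 17.3% of the members called over Tabloncillo (5.27% of all genes), 26.1% over Reventador (15.1%), 17.0% over Zapalote (5.51%), 15.9% over Gordo (5.63%), 28.3% over Nal-tel (14.0%) and 18.4% over Jala (6.95%). Palomero had 19.8% over Tabloncillo (8.03%), 29.0% over Reventador (20.6%), 21.2% over Zapalote (9.89%), 17.3% over Gordo (7.86%), 28.6% over Nal-tel (15.7%) and 17.0% over Jala (8.29%). The ratio of the share in the block to that over all genes ran from 1.41 to 3.29, with a median of 2.17. In the 15 pairs among the other 6, 3.18% to 16.3% of the members were called, against 5.38% to 17.5% of all genes. There the ratio ran from 0.407 to 1.18, with a median of 0.778, and exceeded 1 in the pair of Tabloncillo and Zapalote alone. For Palomero over Mushito the ratio was 0.202, which rests on 1 member, and it was 0.939 without the second library of the fifth leaf of Mushito. In the flanks the same 12 pairs had ratios of 0.797 to 1.32 below the block and 0.455 to 1.25 above it. In the 15 pairs among the other 6 these were 0.824 to 1.16 below the block and 0.420 to 1.44 above it. For Palomero over Mushito the flank ratios were 0.632 below and 1.58 above. The highest ratios of the upper flank thus passed 1.41, the lowest ratio of the block in the 12 pairs.

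**Figure D4:**
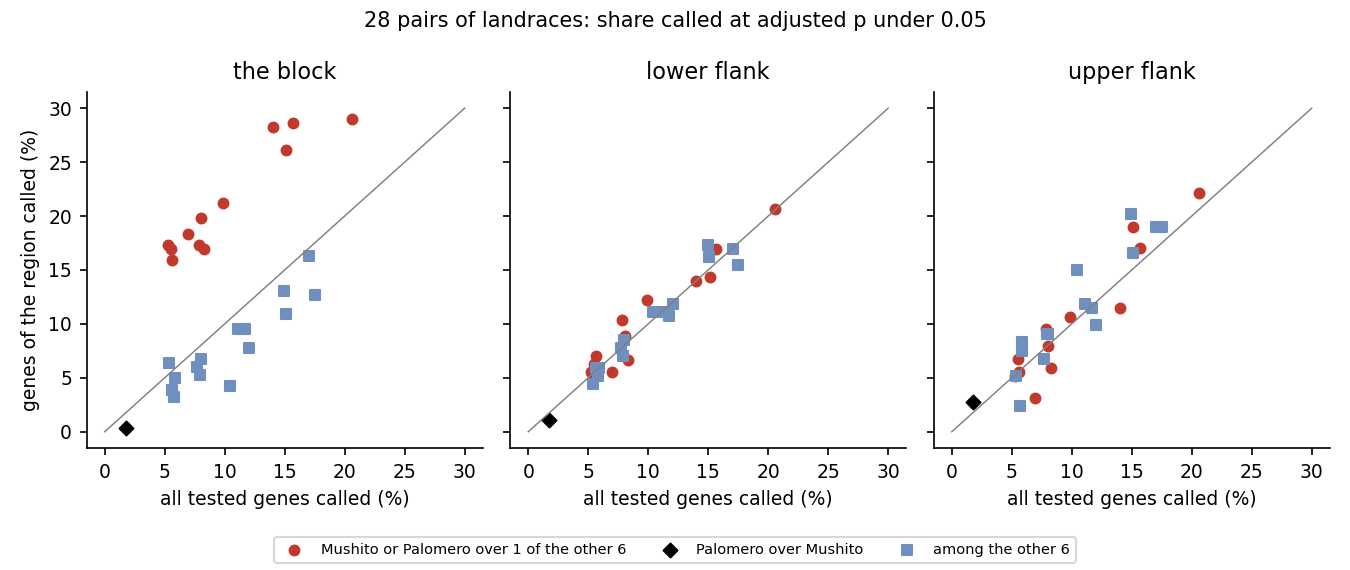
Each point is 1 of 28 pairs of landraces, by the share of all tested genes called (horizontal, %) and the share of the genes of the block, the lower flank or the upper flank called (vertical, %), at an adjusted p under 0.05 (limma), with the line of equal shares. In the block the 12 pairs of Mushito or Palomero with another landrace lie above the line and 14 of the 15 pairs among the other 6 lie below it, while in the flanks both kinds scatter about it.

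Single libraries of one leaf were also compared directly. The median absolute log2 difference over the 283 members was 0.203 to 0.392 between a library of Mushito and one of Palomero (8 library pairs, median 0.267). It was 0.311 to 0.566 between a library of the pair and one of the other 6 (96 library pairs, median 0.429), and 0.230 to 0.553 between libraries of different landraces among the other 6 (120 library pairs, median 0.353). Replicates within Mushito or Palomero differed by 0.188 to 0.358 (4 library pairs, median 0.215), and replicates within the other 6 had a median of 0.305 (12 library pairs). Between Mushito and Palomero, between the pair and the other 6, and among the other 6, the medians were 0.339, 0.402 and 0.394 in the lower flank and 0.304, 0.361 and 0.368 in the upper flank. Mushito and Palomero were thus the closest of these 3 in the flanks too. Over all tested genes the medians were 0.291, 0.353 and 0.362 in the same order, so a library of the pair and one of the other 6 were no farther apart than 2 of the other 6 over the whole table. These are descriptions without a test, and libraries are shared between the pairs.

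The levels of the members called were also counted by landrace. For each of the 110 members called in the first comparison, the midpoint between the mean log2 level of the pair and that of the other 6 was taken, and it was counted on which side each landrace mean fell. The choice of the members fixes much of this order, so it is a description. Mushito was on the pair's side in 102 of 110 members (92.7%, against 88.0% of all genes called) and Palomero in 103 (93.6%, against 94.9%). Gordo was on that side in 16, Tabloncillo in 14, Reventador in 12, Jala in 11, Nal-tel in 9 and Zapalote in 7. By single library the share was 76.4% to 89.1% in the pair and 10.9% to 26.4% in the other 6. Over all genes called it was 69.1% to 87.1% in the pair and 17.6% to 39.4% in the other 6, so the 2 sets of libraries were also apart over the whole table.

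Over all 8 landraces the F-test called 143 members, or 50.5%, against 40.5% of all tested genes. Each landrace was then set against the other 7. These 8 comparisons overlap in their controls. Mushito had 19.4% of the members called against 5.22% of all genes, and Palomero 23.3% against 9.66%. Reventador had 18.4% against 21.2% and Nal-tel 15.5% against 14.8%. Jala had 8.48% against 8.35%, Tabloncillo 7.77% against 7.13%, Gordo 5.65% against 7.67% and Zapalote 4.24% against 4.82%. In these 6 landraces the share in the block was near that over all genes or below it.

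In some members the 4 libraries of 1 landrace were apart from all 28 others. There were 3 such members for Reventador (1.06%, against 1.3% of all genes), 3 for Jala (1.06%, against 0.333%), 2 for Palomero (0.707%, against 0.455%) and 0 for Gordo (0.386% of all genes). There was 1 (0.353%) each for Mushito, Tabloncillo, Zapalote and Nal-tel, against 0.157%, 0.218%, 0.103% and 0.868% of all genes in that order. Zm00001eb193410 had 5.74, 30.8, 15.8 and 17.0 normalized counts in the 4 libraries of Zapalote, against a lowest value of 56.7 elsewhere, found in Palomero (log2 ratio -3.28, SE 0.43, adjusted p = 0.000134 by limma). Zm00001eb192550 had 362.9, 289.3, 575.4 and 469.6 in Jala and at most 238.1 elsewhere (log2 ratio 1.93, SE 0.31, adjusted p = 0.000458 by limma). In both, 1 landrace other than the pair held the extreme.

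Zm00001eb192020 had 691.5, 475.1, 427.2 and 475.8 in Reventador and at most 307.4 elsewhere (log2 ratio 1.63, SE 0.24, adjusted p = 5.42e-05 by limma). Zm00001eb191500 had 724.4, 935.7, 485.6 and 731.2 in Reventador and at least 955.3 elsewhere (log2 ratio -0.82, SE 0.11, adjusted p = 1.90e-05 by limma). Zm00001eb193560 had 2230, 2953, 3396 and 2788 in Nal-tel and at least 3494 elsewhere (log2 ratio -0.59, SE 0.08, adjusted p = 3.35e-05 by limma). The gap to the nearest other library was narrow in the last 2 of these members.

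The members that set Mushito or Palomero apart from all 7 others, the other landrace of the pair included, were these 3. Zm00001eb193490 had 827.3, 786.3, 877.2 and 691.4 in Mushito and at most 660.3 elsewhere (log2 ratio 0.63, SE 0.11, adjusted p = 0.00137 by limma). Zm00001eb192980 had 2774, 2660, 2104 and 1646 in Palomero and at least 2832 elsewhere (log2 ratio -0.96, SE 0.13, adjusted p = 7.33e-05 by limma). Zm00001eb193360 was higher in Palomero than in all 28 others.

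Between the leaves, averaged over the 8 landraces, 55 members were called, 28 higher (9.39% of all genes) and 27 lower (9.08% of all genes) in the ninth leaf. That is 19.4% of the members, against 18.5% of all tested genes, so by leaf the block was near the background. The labels give no sequencing batch, and a batch that follows the leaf could not be told apart from it.

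Zm00001eb192150 was lower in the ninth leaf in all 8 landraces. It averaged 105.5 ± 91.5 normalized counts in the ninth leaf and 450.0 ± 221 in the fifth leaf (SD, n = 16 each), a log2 ratio of -2.23 (SE 0.24, adjusted p = 4.75e-06 by limma). In Tabloncillo the leaves overlapped, with 119.2 and 402.0 in the ninth and 142.5 and 856.8 in the fifth leaf. Zm00001eb193240 averaged 186.0 ± 73.9 in the ninth leaf and 531.1 ± 197 in the fifth leaf (SD, n = 16 each), a log2 ratio of -1.51 (SE 0.21, adjusted p = 4.48e-05 by limma).

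Zm00001eb193920 was higher in the ninth leaf in all 8 landraces, at 891.8 ± 192 in the ninth and 515.7 ± 130 in the fifth leaf (SD, n = 16 each), with a log2 ratio of 0.80 (SE 0.10, adjusted p = 2.57e-05 by limma). Zm00001eb191000, one of the members lower in the pair, was also higher in the ninth leaf, at 204.2 ± 125 in the ninth and 87.7 ± 75.3 in the fifth leaf (SD, n = 16 each, log2 ratio 1.45, SE 0.28, adjusted p = 0.00122 by limma). It thus differed both between landraces and between leaves.

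One member, Zm00001eb192380, was called in the F-test for a leaf effect that is unequal between landraces (limma, adjusted p = 0.0225), which is 0.353% of the block, against 0.0612% of all genes. It had 1050 and 1714 normalized counts in the ninth leaf and 63.9 and 36.1 in the fifth leaf of Palomero. Mushito had 10.9 and 38.0 in the ninth and 43.5 and 35.0 in the fifth leaf. The other 6 ran from 101.2 to 300.8 in the ninth leaf and from 162.9 to 563.0 in the fifth.

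In the fifth leaf both landraces of the pair were therefore below all 12 others, with a log2 ratio of -2.64 (SE 0.31, adjusted p = 1.96e-05 by limma). In the ninth leaf Mushito was below all others and Palomero above all others. The change in Palomero, ninth leaf over the fifth, was 4.77 on the log2 scale (SE 0.55, adjusted p = 0.000531 by limma), while in the other 7 landraces it was negative, at -0.90 in Mushito and -0.09 in Reventador, and none was called. Palomero over Mushito was 3.13 over both leaves (SE 0.39, adjusted p = 8.74e-05 by limma), and in the fifth leaf they overlapped. The call for an unequal leaf effect was lost without any 1 of the 4 libraries of Palomero (adjusted p = 0.0509 to 0.119) and with edgeR on recovered reads (adjusted p = 0.0733).

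**Figure D5:**
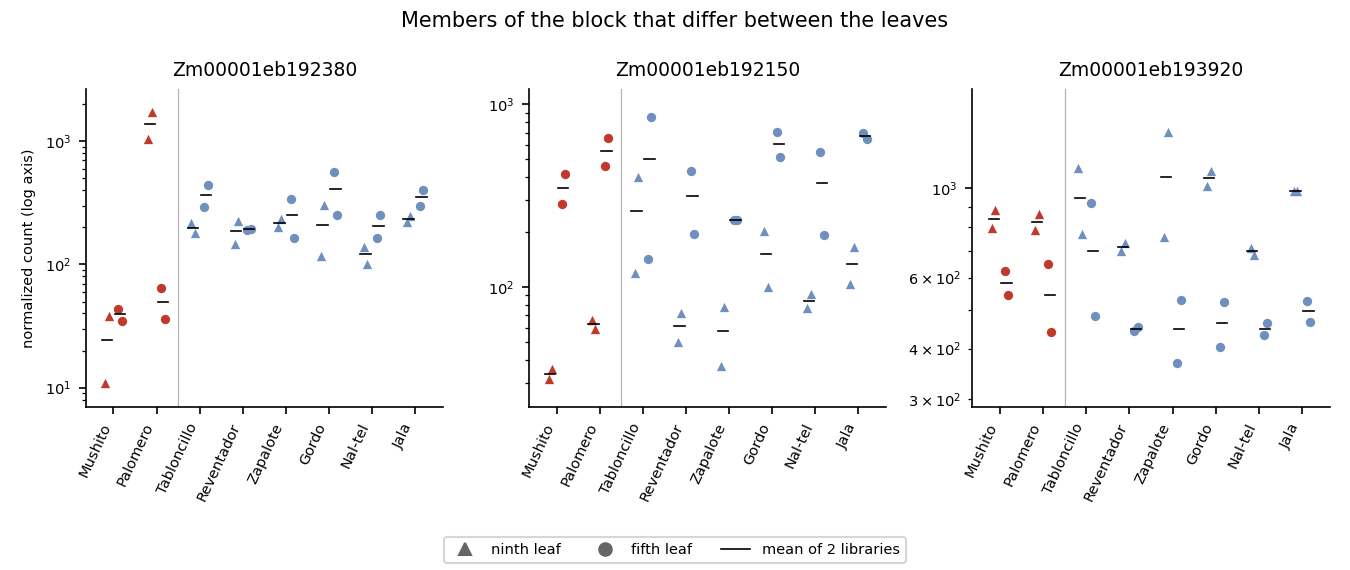
Normalized counts of 3 members on log axes, by landrace, with 2 ninth-leaf libraries (triangles), 2 libraries of the fifth leaf (circles) and their mean (lines) for each landrace. In Zm00001eb192380 the ninth leaf of Palomero stands at 1050 and 1714 and that of Mushito at 10.9 and 38.0, while Zm00001eb192150 is lower and Zm00001eb193920 higher in the ninth leaf of all 8 landraces by their means.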

How the data were processed

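Per the submitters' processing notes, STAR, featureCounts and DESeq2 were used; their versions, the genome build and the strand setting are not given in the sources used here. The authors deposited 1 table of normalized counts, used here as a signal scaled by 1 factor per library. All values (100%, tolerance 0.01 of a step) were whole multiples of 1 step per library, and dividing by it gave whole reads; for 2 libraries that step lies near 1. Of the low values, 76.7% to 87.0% were even, so reads are not independent molecules. Only reads placed on annotated genes were counted, and reads of near-identical or overlapping genes are uncertain.

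Genes with a mean of at least 10 were fitted with limma 3.58.1 (R 4.3.3) on log2(value + 1), a scale that understates changes of low genes, with 16 group means, 1 shared spread, an intensity trend and Benjamini-Hochberg adjustment (threshold 0.05). The fit was tested on simulated data. Named members had an adjusted p under 0.05, a mean of at least 100 and groups that do not overlap (for the leaf effect, 1 direction in all 8 landraces), at most 2 in each direction per comparison, and 1 in each direction for each landrace against the other 7; the F-tests name the smallest p. Exceptions are said to be few in number or at the floor or the minimum mean. The members and these rules were chosen with earlier results of these data known. Alternatives were pseudocounts of 0.1 and 10, other filters, quantile normalization, robust moderation, edgeR 4.0.16 and DESeq2 1.42.0 on recovered reads, a replicate block, and landraces or libraries left out. Python 3.11.15 did the remaining work.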

Additional observations from a re-analysis of the deposited data

Results flagged for a closer look

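Zm00001eb192380 was marked because its difference between the ninth and the fifth leaf was not the same in all 8 landraces (F-test for the interaction, limma, adjusted p = 0.0225). The change, ninth leaf over the fifth, was 4.77 in Palomero on the log2 scale and -0.90 in Mushito, and it was negative in the other 6, at -0.09 in Reventador. The part of single libraries is given with its values above.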

How the results depend on the processing

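For Mushito and Palomero against the other 6, the count of members called (110) ran from 92 to 126 under the other pseudocounts, filters, scalings and count models (edgeR 108, DESeq2 126) and from 101 to 117 with 1 of the other 6 landraces left out, but was 10 with landraces as the units, of which 7 were lower. Palomero over Mushito (1) gave 7 with DESeq2, 3 without Tabloncillo and 2 without Zapalote. The pair's leaf difference (0) gave 1 with a pseudocount of 10, 1 with edgeR and 4 with DESeq2, and the unequal leaf effect (1) gave 0 with edgeR and 13 with DESeq2. For the pair's leaf difference DESeq2 also called a larger share of all genes than limma, as given above. Where no share over all genes is given for a count in this paragraph, the count is not read as a result about the block. The cause was not tested. With single libraries left out, the counts ran from 88 to 113 for the pair, 35 to 56 in the ninth leaf and 48 to 83 in the fifth, 44 to 79 for Mushito, 53 to 85 for Palomero, 1 to 7 for Palomero over Mushito, 120 to 148 for the F-test over landraces, 47 to 65 for the leaf effect, 0 to 2 for the pair's leaf difference and 0 to 3 for the unequal leaf effect. Where that left a group with 1 library, that library was assumed to vary like the others. The named members were picked for their calls in these data, which largely fixes the next tally, so it is a description. Landraces as the units were used for the pair against the other 6 alone. Of the members named for other comparisons, Zm00001eb191000 and Zm00001eb194380 were among the 10 called on those units. Zm00001eb192420, Zm00001eb193360, Zm00001eb194070 and Zm00001eb191590 were not. Of 1185 values for named members, 1180 kept direction and side of the threshold, 5 lost the call (all Zm00001eb192380, unequal leaf effect) and 0 reversed. Same-numbered deviations correlated at -0.175 to 0.112 across leaves of 1 landrace, over 0.1 in 1 of 8. Between landraces they correlated at -0.0717 to 0.170 in the ninth leaf, over 0.1 in 1 of 28. In the fifth leaf it was -0.179 to 0.217, over 0.1 in 4 of 28. Replicate numbers thus did not pair the libraries as a rule. With the replicate block 110 members were called for the pair, 50 in the ninth leaf and 82 in the fifth. Only 2 landraces stand on one side of the first comparison, and depth limits members near 3 reads.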

Other observations

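Among the 100 IDs of the block that missed the minimum mean, 86 had a value above 0 in some library. In 1 of them, Zm00001eb191520, all 8 libraries of Mushito and Palomero were above the other 24. It ran from 11.3 to 36.8 normalized counts in the pair, with a mean of 25.6, and averaged 1.22 in the other 6 landraces, with a highest value of 5.82. In 0 of them were all 8 below the other 24. These IDs were in no fit, so no test is given. The same count was not made over the 13600 IDs below the minimum in the whole table. Whether 1 of 100 is more than elsewhere was therefore not tested.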
